A study of Mus musculus with 12 samples.

Results

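The genes of prostaglandin synthesis, breakdown and reception were followed through cultured mouse adventitial fibroblasts from the ascending and the descending aorta, with and without TGFβ. The set held 10 genes chosen by symbol, among 54352 gene symbols counted: Pla2g4a, Ptgs1, Ptgs2, Ptges, Ptgis, Hpgd, Ptger2, Ptger3, Ptger4 and Ptgfr. Of these, 9 had a count in at least 1 library and 8 passed the filter on low counts over all libraries. Ptger2 had 0 counts in each of the 12 libraries, and Ptger3 had at most 4 counts in any library, so neither entered a test.

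Prostaglandins are short-lived lipid signals that act close to the cell that makes them. A phospholipase (Pla2g4a, cytosolic phospholipase A2) frees arachidonic acid from membranes, a cyclooxygenase (Ptgs1 or Ptgs2, known as COX-1 and COX-2) converts it to prostaglandin H, and terminal synthases make the final products, prostaglandin E through Ptges and prostacyclin through Ptgis. Hpgd, 15-hydroxyprostaglandin dehydrogenase, starts their breakdown. Ptger2, Ptger3 and Ptger4 encode receptors of prostaglandin E (EP2, EP3 and EP4), and Ptgfr encodes the receptor of prostaglandin F. In the vessel wall, prostacyclin is known as a relaxing and platelet-inhibiting signal and COX-2 as the cyclooxygenase that stimuli induce.

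All cultures were primary explant cultures from wild-type C57Bl/6 mice (male by the study's methods, 14 weeks old by the sample labels), passaged once. The 4 groups were descending and ascending fibroblasts given the solute alone (control) or mouse TGFβ at 10 ng/mL, in both cases for 48 h, with 3 libraries per group (12 in all). The ascending tissue included the aortic root by the study's methods. Nothing in the labels says that libraries of a group came from separate animals or cultures, so the p-values measure the spread between these libraries, which may be technical.

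Libraries held 16250126 to 23892943 counts, and 3 counts, used as a floor for detection, were worth 0.117 to 0.207 normalized CPM (counts scaled to a common effective library size). One library stood apart: descending control replicate 3 detected 13031 genes against 19337 to 20931 in the other 11, with 11.02% of its counts on mitochondrial genes against 0.703% to 1.03%. The tests that rest on it are given with and without it. The 8 fibroblast markers were over the floor in every library. Macrophage markers summed to 56.1 to 368 normalized CPM in ascending control, with the highest sum in replicate 2, and to 14.8 to 50.1 in the other groups. Of the endothelial markers, Tie1 was at 0 in every library, and Myh6 of the cardiomyocyte markers likewise.

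The promoters of the genes whose levels separated the groups most plainly are printed first: Ptgs2 and Ptgs1, which moved in opposite directions with TGFβ, and Ptges and Hpgd, which differed most between the sites among the enzymes. They are the 250 bases before the start that RefSeq gives on GRCm38.p6, read along the strand of the gene. Capitals mark matches, on either strand, to CAGAC (a SMAD-binding motif, the SMADs being the factors that carry the TGFβ signal) or to GGGCGG (a motif of SP and KLF factors).
Ptgs2, chr1:150099781-150100030, plus strand: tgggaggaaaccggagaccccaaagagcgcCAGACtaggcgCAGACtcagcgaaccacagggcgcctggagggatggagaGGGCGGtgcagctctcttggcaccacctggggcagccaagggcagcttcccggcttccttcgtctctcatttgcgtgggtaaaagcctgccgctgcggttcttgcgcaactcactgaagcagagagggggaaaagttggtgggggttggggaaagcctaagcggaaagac
Ptgs1, chr2:36230176-36230425, plus strand: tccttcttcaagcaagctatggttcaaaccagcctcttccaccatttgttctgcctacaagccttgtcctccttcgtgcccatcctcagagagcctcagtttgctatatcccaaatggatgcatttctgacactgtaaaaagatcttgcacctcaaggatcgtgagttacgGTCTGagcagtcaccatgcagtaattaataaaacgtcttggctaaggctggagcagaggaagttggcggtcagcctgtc
Ptges, chr2:30903298-30903547, minus strand: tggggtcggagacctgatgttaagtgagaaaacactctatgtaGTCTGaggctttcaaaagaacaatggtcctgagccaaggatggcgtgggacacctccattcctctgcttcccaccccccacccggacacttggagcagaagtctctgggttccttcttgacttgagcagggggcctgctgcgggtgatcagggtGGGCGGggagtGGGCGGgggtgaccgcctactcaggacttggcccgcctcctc
Hpgd, chr8:56294302-56294551, plus strand: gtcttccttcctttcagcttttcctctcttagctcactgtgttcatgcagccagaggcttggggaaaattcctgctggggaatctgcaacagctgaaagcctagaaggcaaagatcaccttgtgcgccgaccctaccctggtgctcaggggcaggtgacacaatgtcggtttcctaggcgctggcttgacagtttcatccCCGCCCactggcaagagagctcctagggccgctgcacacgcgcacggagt

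The Ptgs2 promoter held CAGAC at -220 and -209 and GGGCGG at -170, counted from the start site to the first base of each match. The Ptgs1 promoter held 1 CAGAC, on the opposite strand at -79, and no GGGCGG. In Ptges, CAGAC lay on the opposite strand at -207 and GGGCGG at -53 and -42. The Hpgd window before the start held GGGCGG on the opposite strand at -50, and its CAGAC lay after the RefSeq start, at 26, which is before the start of the gene at 56294585 in the GENCODE annotation. Over the full 300-base windows (250 bases before the start and 50 after), 9 of the genes had an entry, with 10 promoters between them since Pla2g4a had 2. CAGAC was found in promoters of 7 of these genes against 49.6% of all 32851 promoters in the table, and GGGCGG in 6 against 35.7%. TATAAA was found in 2 (13.6% of all promoters), CCAAT in 3 (37.4%) and CACGTG only in Ptgs2, at 17 (7.15%). TGANTCA (AP-1, 7.81%), TGACGTCA (CRE, 1.79%), GTCTAGAC (palindromic SMAD, 0.213%) and GGNNNTTCC (a part of the NF-kB motif, 18.5%) had no match in these windows.

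Per exon length, Ptgis was the member with the highest mean in each of the 4 groups. In ascending control the order of mean normalized CPM per kb was Ptgis 76.5, Ptgs1 13.0, Hpgd 6.83, Pla2g4a 4.85, Ptgs2 3.06, Ptges 2.43, Ptger4 0.764 and Ptgfr 0.0419, and no 2 neighbours overlapped between libraries. With TGFβ the ascending order became Ptgis 99.2, Ptgs2 59.9, Pla2g4a 11.4, Ptgs1 5.45, Ptges 1.27, Hpgd 0.688, Ptger4 0.215 and Ptgfr 0.0411, again without overlap between neighbours. In descending control it was Ptgis 30.3, Ptgs1 11.6, Ptges 11.2, Pla2g4a 6.89, Ptgs2 5.71, Ptger4 1.302, Ptgfr 0.269 and Hpgd 0.240. There the ranges of each pair of neighbours from Ptgis down to Ptgs2 overlapped between libraries, as did those of Ptgfr and Hpgd, and only Ptger4 lay clear of both its neighbours. Without replicate 3 the means were Ptgis 40.6, Ptgs1 12.6, Ptges 12.4, Pla2g4a 5.55, Ptgs2 4.44, Ptger4 1.39, Hpgd 0.360 and Ptgfr 0.307, so that Hpgd then stood above Ptgfr. Over replicates 1 and 2 the pairs that still overlapped were Ptgs1 with Ptges and Hpgd with Ptgfr. In descending fibroblasts with TGFβ it was Ptgis 65.7, Ptgs2 49.9, Pla2g4a 8.80, Ptgs1 5.74, Ptges 5.52, Ptger4 0.252, Ptgfr 0.241 and Hpgd 0.133, where Ptgs1 overlapped with Ptges, Ptger4 with Ptgfr, and Ptgfr with Hpgd.

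**Figure D1:**
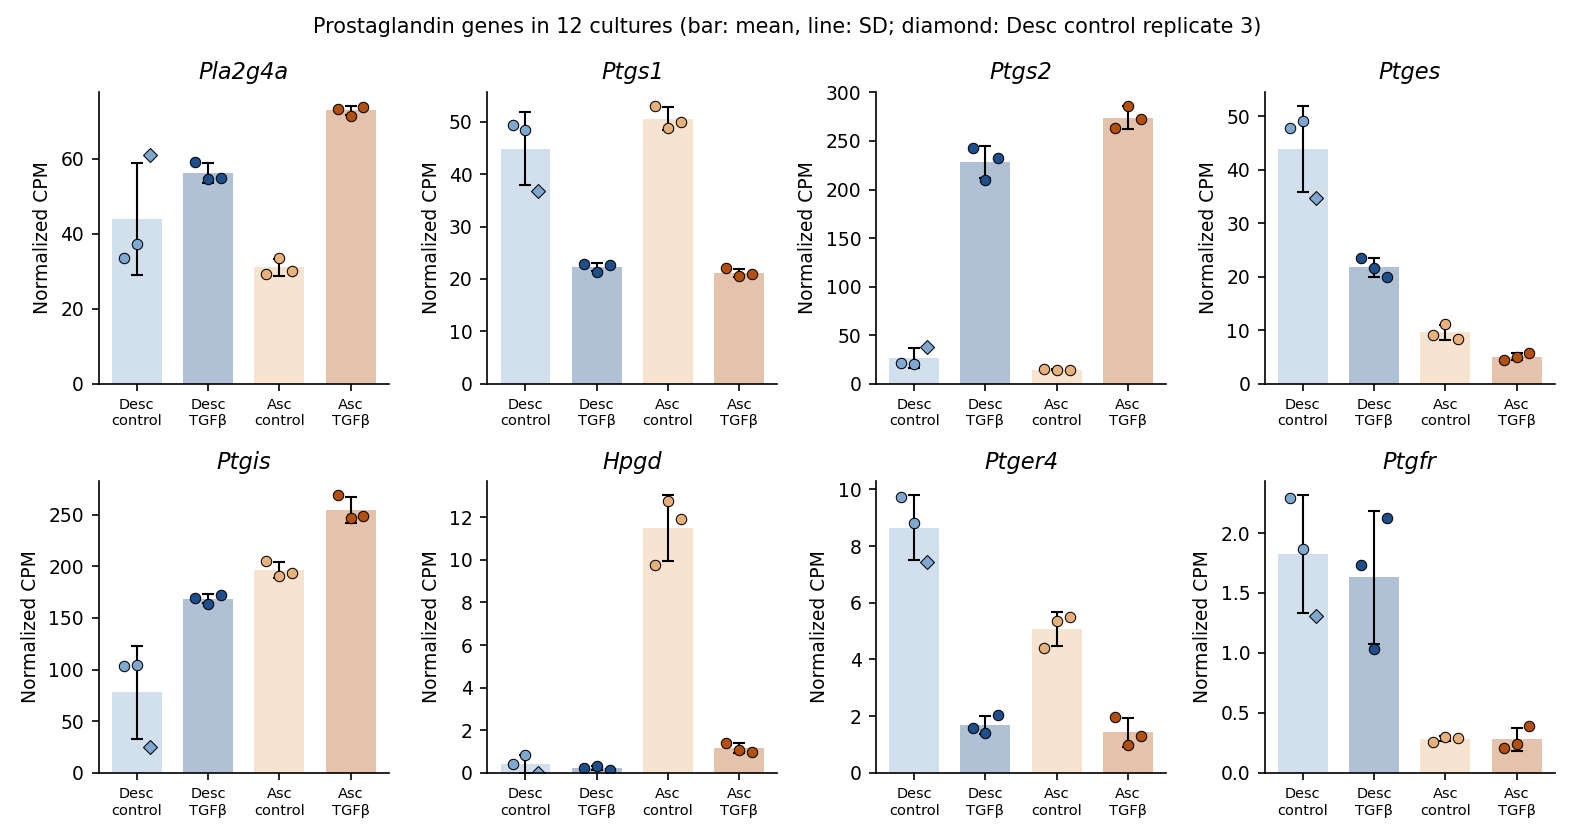
Normalized CPM (vertical axis, linear from 0) of the 8 prostaglandin genes that passed the filter, in the 4 groups. Bars are means, lines SDs and points the 3 libraries per group, with a diamond for descending control replicate 3. Ptgs2 lies at 210 or more in every TGFβ library and at 37.8 or less in every control library, and Hpgd reaches 9.77 or more only in ascending control.

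TGFβ moved every tested member in ascending fibroblasts. Of the 7 genes tested, 3 were higher with TGFβ (Ptgs2, Pla2g4a and Ptgis) and 4 were lower (Ptgs1, Ptges, Hpgd and Ptger4), while 55.8% of all genes tested passed the same threshold, an adjusted p under 0.05 in edgeR's quasi-likelihood test. The median log2 fold change of the 7 genes was -0.94, against 0.00 over all genes. In descending fibroblasts 4 of 7 tested genes passed, 1 higher (Ptgs2) and 3 lower (Ptgs1, Ptges and Ptger4), against 8.07% of all genes. Without descending control replicate 3, 6 of 7 passed, 3 higher and 3 lower, against 52.9% of all genes, and Pla2g4a and Ptgis were the additional genes. The median of the 7 genes with all libraries was -0.17, against 0.02 over all genes. Without control replicate 3 the middle value was that of Ptgfr, -0.34. The summed smooth muscle markers, 6 of 6 over the floor in every library and most of the sum Acta2, differed with TGFβ as well, from sums of 1579 to 1692 to sums of 5107 to 5193 normalized CPM in ascending and from 2509 to 2554 to 7960 to 8381 in descending fibroblasts. Myh11 of these markers was ordered the other way in ascending fibroblasts, at 23.4, 25.5 and 23.2 in control and 17.7, 16.8 and 12.5 with TGFβ. The endothelial sum, most of it Tek, went from 24.4 to 27.9 down to 4.70 to 5.72 in ascending and from 23.9 to 26.8 down to 9.49 to 11.2 in descending fibroblasts. Kdr of these markers was ordered the other way in descending fibroblasts, at 0.51, 0.95 and 0 in control and 1.22, 1.57 and 1.61 with TGFβ. The macrophage sum went from 56.1 to 368 down to 30.4 to 43.1 in ascending fibroblasts. In descending fibroblasts it was 25.5 to 50.1 in control and 14.8 to 28.0 with TGFβ. These ranges overlapped only through control replicate 3, which had the lowest control sum. Without that library the macrophage sum was lower with TGFβ in descending fibroblasts as well, without overlap. Most of the macrophage sum in control was Lyz2. Of these markers, Csf1r and C1qa overlapped between the descending groups without that library, and the others did not. The Schwann cell sum, most of it S100b, went from 20.5 to 25.9 down to 14.6 to 14.99 in ascending and from 15.2 to 24.8 down to 11.9 to 13.7 in descending fibroblasts. Mbp of these markers was ordered the other way in descending fibroblasts, at 0.51, 0.43 and 0 in control and 1.1, 1.4 and 2.0 with TGFβ. The adipocyte sum, given beside Ptges, was also lower with TGFβ at each site. The part of these markers in the changes of the prostaglandin genes was not tested. These are bulk libraries, in which fewer cells of a type and less RNA per cell cannot be told apart.

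**Figure D2:**
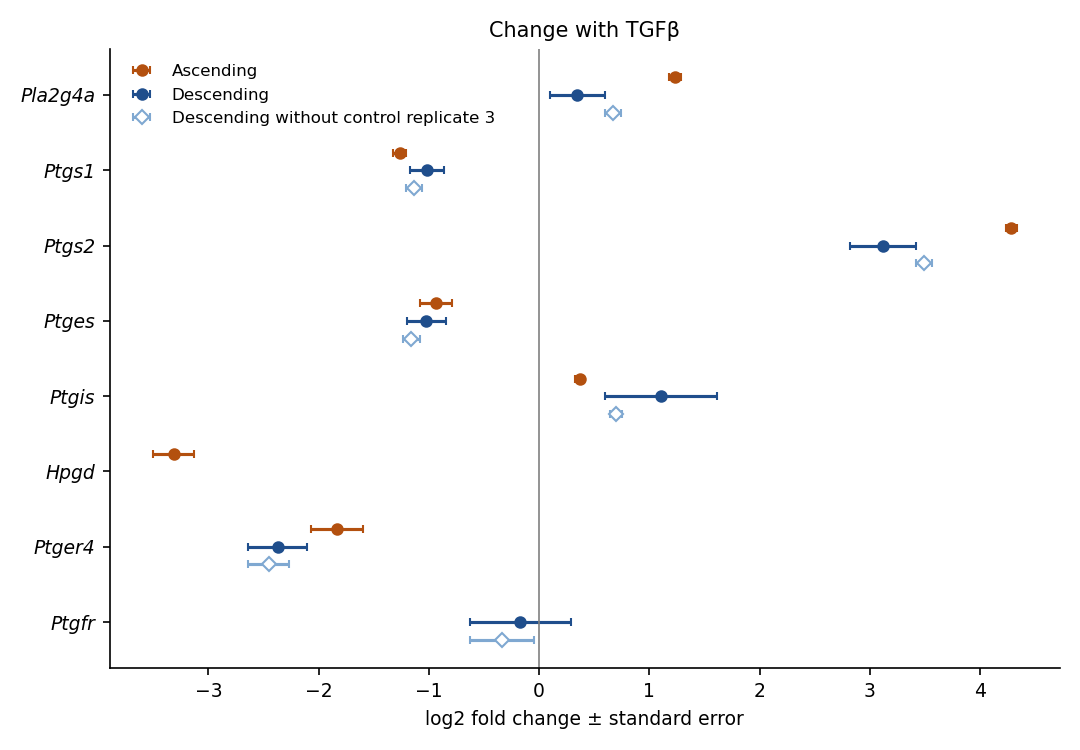
Log2 fold change with TGFβ (horizontal axis) ± standard error for each tested gene, in ascending fibroblasts (orange), descending fibroblasts (dark blue) and descending fibroblasts without control replicate 3 (open diamonds). Ptgs2 lies farthest to the right at each site, at 4.28 and 3.12, and Hpgd, tested only in ascending fibroblasts here, farthest to the left at -3.32.

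Pla2g4a, which frees arachidonic acid, lies at chr1:149829618-149961290 on the minus strand (GRCm38). Its levels in ascending control were 29.4, 33.7 and 30.04 normalized CPM, and with TGFβ they were 73.4, 71.6 and 73.9. The groups did not overlap, and the log2 fold change was 1.23 ± 0.06 (SE, adjusted p = 7.89e-12), a 2.35-fold rise. Descending control libraries had 33.6, 37.4 and 61.1, and descending libraries with TGFβ 59.2, 54.7 and 54.9. The value of 61.1 belonged to replicate 3, above all 3 TGFβ libraries, and the log2 fold change was 0.35 ± 0.25 (adjusted p = 0.455). Without that library it was 0.67 ± 0.07 (adjusted p = 2.85e-09, over all alternatives 2.85e-09 to 0.712).

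Ptgs2, the inducible cyclooxygenase, lies at chr1:150100031-150108227 on the plus strand. Ascending control libraries had 14.6, 13.9 and 13.6 normalized CPM, and ascending libraries with TGFβ had 264, 286 and 273. The log2 fold change was 4.28 ± 0.05 (adjusted p = 3.74e-19), 19.5-fold, and ranked 14 from the top among 13917 genes tested. Descending control libraries had 20.7, 19.9 and 37.8, replicate 3 again being the highest, and descending libraries with TGFβ had 243, 210 and 232. The log2 fold change was 3.12 ± 0.30 (adjusted p = 0.00397), 8.70-fold, ranked 89 of 13825. Without replicate 3 it was 3.49 ± 0.07 (adjusted p = 4.99e-26), and every alternative kept the call, with adjusted p up to 0.0460.

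Ptgs1, the cyclooxygenase that most tissues make at rest, lies at chr2:36230426-36252272 on the plus strand and moved the other way. It fell in ascending fibroblasts from 53.1, 48.8 and 50.1 normalized CPM to 22.0, 20.6 and 20.9 (log2 fold change -1.27 ± 0.06, adjusted p = 7.06e-12, 2.40-fold). In descending fibroblasts it fell from 49.4, 48.6 and 36.8 to 22.9, 21.4 and 22.6 (log2 fold change -1.02 ± 0.16, adjusted p = 0.0163). The groups did not overlap at either site. The descending call was lost when any library other than control replicate 3 was left out, with adjusted p from 0.0671 to 0.121. It was lost as well with the replicate number as a block, and was firmer without control replicate 3 (log2 fold change -1.13 ± 0.07, adjusted p = 6.23e-14).

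The more abundant cyclooxygenase was a different one in control and with TGFβ. The ratio of Ptgs2 to Ptgs1, per exon length, was 0.231 to 0.241 in ascending control and 10.2 to 11.8 in ascending fibroblasts with TGFβ. It was 0.348 to 0.872 in descending control, the highest value being that of replicate 3, and 8.33 to 9.01 in descending fibroblasts with TGFβ. Per exon length, Ptgs1 was the more abundant transcript in all 6 control libraries, and Ptgs2 in all 6 TGFβ libraries.

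Ptges, the inducible prostaglandin E synthase, lies at chr2:30889471-30929863 on the minus strand and had its higher levels in the descending cultures. Descending control libraries had 47.9, 49.2 and 34.7 normalized CPM and ascending control libraries 9.17, 11.1 and 8.42. With TGFβ the descending values were 23.5, 21.6 and 19.99 and the ascending values 4.44, 4.87 and 5.70, so that no ascending library reached any descending one. With TGFβ, Ptges fell in ascending fibroblasts (log2 fold change -0.94 ± 0.15, adjusted p = 4.21e-05) and in descending fibroblasts (log2 fold change -1.02 ± 0.18, adjusted p = 0.0232). The descending call was lost when any library other than control replicate 3 was left out (adjusted p 0.0883 to 0.152). It was lost as well with the replicate number as a block, and stood without replicate 3 (log2 fold change -1.16 ± 0.08, adjusted p = 1.23e-13). Ascending against descending, Ptges was lower by a log2 fold change of -2.20 ± 0.20 in control (adjusted p = 0.00717) and -2.11 ± 0.11 with TGFβ (adjusted p = 2.00e-15), 4.58-fold and 4.32-fold. In control the call was lost without ascending control replicate 1, 2 or 3 (adjusted p = 0.0810, 0.0550 and 0.0788) and with the replicate number as a block (0.087). It stood without descending control replicate 3 (log2 fold change -2.33 ± 0.09, adjusted p = 1.81e-10). Adipocyte markers had a like order of groups, with sums of 22.4 to 30.6 normalized CPM in descending control, 9.74 to 18.5 in descending fibroblasts with TGFβ, 0.912 to 4.99 in ascending control and 0.0473 to 0.574 in ascending fibroblasts with TGFβ. All 4 listed were over the floor in every descending control library, and their part in the Ptges result was not tested.

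Ptgis, prostacyclin synthase, lies at chr2:167191805-167240604 on the minus strand and had the opposite distribution. Ascending control libraries had 205, 190 and 194 normalized CPM and ascending libraries with TGFβ 269, 246 and 248, a log2 fold change of 0.37 ± 0.04 (adjusted p = 6.85e-07). In one fit of all 12 libraries this call was lost (adjusted p = 0.645). Descending control libraries had 104, 105 and 25.4, replicate 3 being the low one, and descending libraries with TGFβ 170, 164 and 172. The log2 fold change was 1.11 ± 0.51 (adjusted p = 0.259) with that library and 0.70 ± 0.05 without it (adjusted p = 1.90e-12, over all alternatives 1.90e-12 to 0.523). With TGFβ, Ptgis was higher in ascending than in descending fibroblasts by a log2 fold change of 0.60 ± 0.04 (adjusted p = 1.27e-12), a call lost in one fit of all 12 libraries (adjusted p = 0.604). In control the difference was 1.34 ± 0.51 (adjusted p = 0.350), and 0.93 ± 0.05 without replicate 3 (adjusted p = 4.52e-09, over all alternatives 4.52e-09 to 0.815). With TGFβ the summed mesothelial, macrophage, Schwann cell and cardiomyocyte markers were also higher in ascending fibroblasts. The fibroblast, endothelial, smooth muscle and adipocyte sums were lower there. Single markers did not all follow their sums. The mesothelial marker Krt19 was at 3.45, 3.41 and 3.85 in ascending and 13.3, 11.1 and 12.5 in descending libraries with TGFβ. S100b, most of the Schwann cell sum, overlapped between the sites. Of the fibroblast markers, Col3a1, Dcn and Lum were higher in ascending fibroblasts and the others lower. Most of the cardiomyocyte sum was Tnnt2. The part of these markers in the Ptgis result was not tested.

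The ratio of Ptgis to Ptges, prostacyclin synthase to prostaglandin E synthase per exon length, set the sites apart in every treatment. It was 26.3 to 35.3 in ascending control and 66.7 to 92.8 with TGFβ. In descending control it was 3.31, 3.26 and 1.12 (replicate 3), and with TGFβ 11.1 to 13.2. The lowest ascending ratio thus lay above the highest descending ratio whatever the treatment, and the ratio was higher with TGFβ at each site without overlap.

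**Figure D3:**
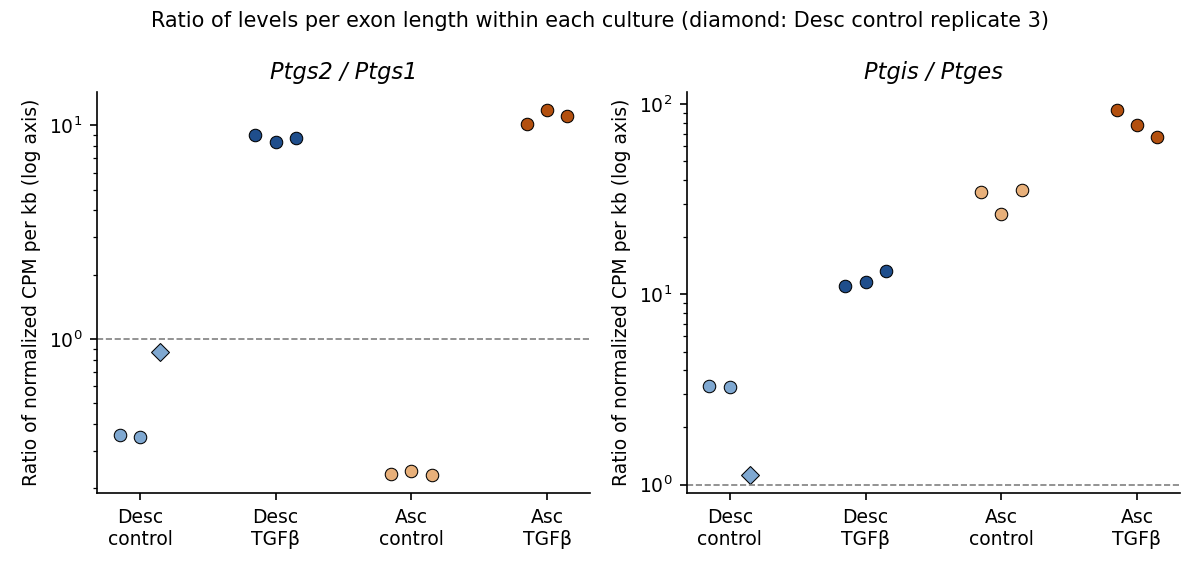
Ratios of normalized CPM per kb within each library (log axes) for Ptgs2 over Ptgs1 (left) and Ptgis over Ptges (right), 3 libraries per group, with a diamond for descending control replicate 3 and a dashed line at equal levels. The left ratio lies below the line in every control library and between 8.33 and 11.8 with TGFβ, and the right ratio separates ascending (26.3 or more) from descending libraries (13.2 or less).

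Hpgd, the enzyme that inactivates prostaglandins, lies at chr8:56294585-56321043 on the plus strand and reached its highest levels in ascending control. These libraries had 225, 256 and 245 counts, or 9.77, 12.8 and 11.9 normalized CPM. With TGFβ, ascending libraries had 27, 23 and 20 counts, or 1.41, 1.09 and 0.974. Descending control libraries had 10, 19 and 0 counts, the 0 being replicate 3, and descending libraries with TGFβ 4, 6 and 3. In ascending fibroblasts the log2 fold change with TGFβ was -3.32 ± 0.19 (adjusted p = 1.38e-10), 9.95-fold lower and 65 from the bottom among 13917 genes. All 13 alternatives kept this call, with adjusted p up to 0.00282. In descending fibroblasts the counts were too low for the filter. Ascending against descending, Hpgd differed by a log2 fold change of 4.75 ± 0.90 in control (adjusted p = 0.0620) and 4.27 ± 0.26 without replicate 3 (adjusted p = 1.92e-08, over all alternatives 5.88e-10 to 0.326). With TGFβ it was higher in ascending fibroblasts by 2.36 ± 0.45 (adjusted p = 9.42e-05), a call lost in one fit of all 12 libraries (adjusted p = 0.0742). Hpgd passed the filter for these site tests only through the ascending libraries, where it was higher, so they are given as a description.

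Summed markers of other cell types moved along with Hpgd, and single markers of a list did not all do so. The summed mesothelial markers were 33.5 to 44.2 normalized CPM in ascending control, 19.7 to 26.5 in ascending fibroblasts with TGFβ, and 6.89 to 13.9 in the descending libraries. Of the 5 listed, 4 were over the floor in every ascending control library, and Wt1 was at 0 in these libraries. Most of the ascending sum came from Upk3b, at 34.9, 29.01 and 37.1 in ascending control. Krt19, another of the 5, was ordered the other way, at 11.8, 11.4 and 6.89 in descending and 4.17, 3.55 and 3.41 in ascending control, and made up most of the descending sum. In the macrophage-rich ascending control replicate 2, Hpgd was 12.8 against 9.77 and 11.9 in the others, and without that library the change with TGFβ was -3.23 ± 0.20 (adjusted p = 3.12e-14). Cardiomyocyte markers summed to 5.84 to 7.79 in ascending control, 3.31 to 3.70 in ascending fibroblasts with TGFβ and 0.428 to 1.68 in descending libraries. Of the 4 listed, only Tnnt2 was over the floor in every ascending library, and Myh6 was at 0. Most of the ascending sum was Tnnt2, which the study names as a secondary heart field marker in smooth muscle cells. Actc1 had 6, 11 and 0 counts in descending and 1, 1 and 0 in ascending control. Myl7 had 5, 1 and 4 counts in descending and 0, 1 and 0 in ascending libraries with TGFβ. The part of the mesothelial, macrophage and cardiomyocyte markers in the Hpgd result was not tested.

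Among the 4 receptor genes of the set, Ptger4 (EP4, chr15:5206661-5244187, minus strand) was the one that passed the test with TGFβ. It fell in ascending fibroblasts from 4.39, 5.34 and 5.50 normalized CPM to 1.98, 0.993 and 1.32 (log2 fold change -1.84 ± 0.24, adjusted p = 4.55e-06, 3.57-fold). In descending fibroblasts it fell from 9.72, 8.80 and 7.45 to 1.58, 1.41 and 2.03 (log2 fold change -2.37 ± 0.26, adjusted p = 0.00606, 5.18-fold). The groups did not overlap at either site. The descending call was lost without descending TGFβ replicate 1 or 2 (adjusted p = 0.0651 and 0.0589) and with the replicate number as a block (0.0884). It stood without control replicate 3 (log2 fold change -2.45 ± 0.19, adjusted p = 2.48e-12). In control, the lowest descending library lay above the highest ascending one, with a log2 fold change of -0.77 ± 0.21 (adjusted p = 0.187), and -0.86 ± 0.15 without replicate 3 (adjusted p = 5.44e-04, over all alternatives 2.37e-04 to 0.693). With TGFβ the sites overlapped (log2 fold change -0.24 ± 0.30, adjusted p = 0.571). A share of 14.4% of the 50-base sequences in the exons of Ptger4 also occurs in Gm15937 on the opposite strand, which had 0 counts in every library. Ttc33, also on the opposite strand, overlaps Ptger4 and had 220 to 395 counts, and the strand setting of the counting is not given in the sources used here. Smaller shares of Ptgs1 (2.63%), Ptgis (4.25%) and Ptgfr (4.50%) are held in common with other genes. The antisense genes that overlap these members had at most 11 counts in any library.

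Ptgfr, the prostaglandin F receptor (chr3:151796502-151837630, minus strand), differed between the sites, and did not pass the test with TGFβ where it was tested, in descending fibroblasts. Descending control libraries had 59, 43 and 19 counts (2.29, 1.86 and 1.31 normalized CPM) and descending libraries with TGFβ 34, 19 and 45 (1.73, 1.03 and 2.13). Each ascending control library had 6 counts (0.261, 0.300 and 0.292 normalized CPM), and ascending libraries with TGFβ had 4, 5 and 8. Ascending values were thus just over the floor, and no ascending library reached a descending one. The adipocyte sums given beside Ptges separated the sites in the same direction, and their part in the Ptgfr result was not tested. Ptgfr passed the filter for the site tests only through the descending libraries, where it was higher, so those tests are given as a description. With TGFβ, Ptgfr was lower in ascending fibroblasts by a log2 fold change of -2.53 ± 0.41 (adjusted p = 1.15e-05). In control the difference was -2.66 ± 0.49 (adjusted p = 0.0583) and -2.84 ± 0.37 without descending control replicate 3 (adjusted p = 4.41e-05, over all alternatives 1.23e-05 to 0.442). The change with TGFβ in descending fibroblasts was -0.17 ± 0.46 (adjusted p = 0.858), and -0.34 ± 0.29 without control replicate 3 (adjusted p = 0.349).

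The remaining prostaglandin E receptors were at or near the floor. Ptger3 (EP3, chr3:157566892-157645888) had 3, 3 and 0 counts in descending control, 1, 4 and 2 in descending fibroblasts with TGFβ, 0, 0 and 2 in ascending control and 0, 3 and 0 in ascending fibroblasts with TGFβ. Ptger2 (EP2, chr14:44988195-45003820) had 0 counts throughout, which allows a level of up to 0.117 to 0.207 normalized CPM depending on the library.

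Between the sites, the control cultures gave few calls while descending control replicate 3 was in the fit. Of 8 genes tested, 1 passed (Ptges, lower in ascending fibroblasts), against 2.65% of all genes. At an unadjusted p under 0.05 there were 6, and DESeq2 called 4. Without replicate 3, 6 of 8 passed against 31.6% of all genes, with Hpgd and Ptgis higher and Ptges, Ptgfr, Ptger4 and Ptgs2 lower in ascending fibroblasts. For Ptgs2 the difference without that library was a log2 fold change of -0.52 ± 0.08 (adjusted p = 2.88e-04, over all alternatives 2.65e-04 to 0.747), and with it -0.89 ± 0.29 (adjusted p = 0.247). With TGFβ, 6 of 8 passed against 36.3% of all genes, with Hpgd, Ptgis, Pla2g4a and Ptgs2 higher and Ptges and Ptgfr lower in ascending fibroblasts. Pla2g4a was higher there by 0.38 ± 0.05 (adjusted p = 3.30e-07) and Ptgs2 by 0.27 ± 0.05 (adjusted p = 2.61e-05), both lost in one fit of all 12 libraries (adjusted p = 0.380 and 0.728). Ptgs1 did not pass between the sites, with log2 fold changes of 0.18 ± 0.15 in control (adjusted p = 0.606), 0.06 ± 0.06 in control without replicate 3 (adjusted p = 0.459) and -0.07 ± 0.08 with TGFβ (adjusted p = 0.493). The median difference of the 8 genes was -0.63 in control and 0.10 with TGFβ, against 0.04 and 0.00 over all genes. Without descending control replicate 3 the middle values in control were -0.52 (Ptgs2) and -0.18 (Pla2g4a). Hpgd and Ptgfr entered the site tests only through the site where they were higher.

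**Figure D4:**
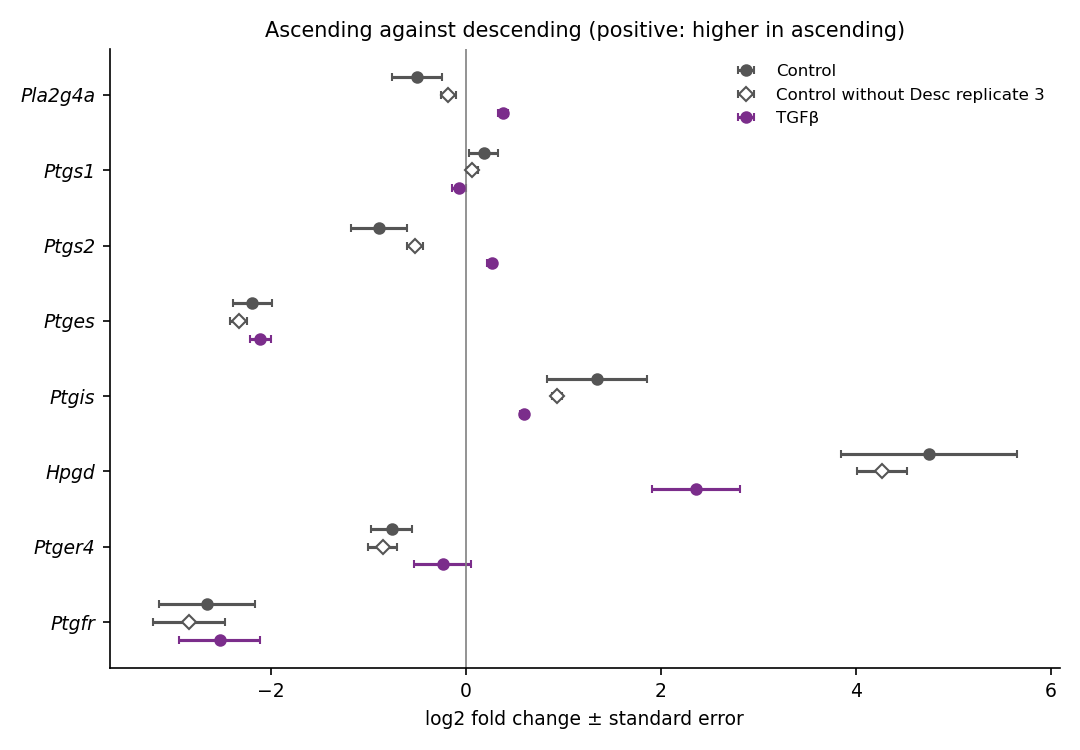
Log2 fold change of ascending against descending fibroblasts (horizontal axis, positive when higher in ascending) ± standard error in control (grey), in control without descending replicate 3 (open diamonds) and with TGFβ (purple). Ptges and Ptgfr lie at -2.11 or below in all 3 fits, Hpgd at 2.36 or above, and Ptgs2 lies left of 0 in control and right of it, at 0.27, with TGFβ.

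Whether the response to TGFβ differed between the sites was tested as the interaction of site and treatment over all 12 libraries. With every library, 0 of 8 genes passed (edgeR), against 0.806% of all genes. At an unadjusted p under 0.05 there were 3 (Ptgs2, Pla2g4a and Hpgd), DESeq2 called 1 (Ptgs2) and limma-voom with sample weights 4. Without descending control replicate 3, 4 of 8 passed against 13.5% of all genes, 2 with a more positive response in ascending fibroblasts (Ptgs2 and Pla2g4a) and 2 with a more negative one (Ptgis and Hpgd). Hpgd passed the filter for the interaction only through the ascending libraries, where it was higher, so its test is given as a description. For Ptgs2 the difference of the log2 responses, ascending minus descending, was 1.16 ± 0.29 with all libraries (adjusted p = 0.125) and 0.79 ± 0.09 without that library (adjusted p = 1.01e-06, over all alternatives 1.01e-06 to 0.354). For Pla2g4a it was 0.88 ± 0.26 (adjusted p = 0.221) and 0.57 ± 0.09 without (adjusted p = 7.09e-05, over all alternatives 5.14e-05 to 0.500). For Ptgs1 and Ptges, which fell at both sites, it was -0.25 ± 0.16 and 0.09 ± 0.24 with all libraries (adjusted p = 0.588 and 0.869), and -0.13 ± 0.09 and 0.23 ± 0.15 without descending control replicate 3 (adjusted p = 0.415 and 0.387).

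Of the other genes of the eicosanoid pathway, 51 were present, listed by function. In ascending fibroblasts 24 were tested with TGFβ, of which 5 were higher and 12 lower, beside 55.8% of all genes. In one fit of all 12 libraries only Slco2a1 and Abcc4 of these kept the call. All 6 genes tested in the list of breakdown and transport were lower: Slco2a1, Ptgr1, Ptgr2, Zadh2, Cbr2 and Abcc4, of which Abcc4 is known to carry prostaglandins out of cells. Cbr2 had 28 to 46 counts in ascending control and 9 to 17 with TGFβ. It passed the filter only through control, where it was higher, so its test is given as a description. Slco2a1, the transporter that takes prostaglandins into cells, fell from a mean of 210 ± 10.2 to 84.7 ± 2.82 normalized CPM (SD, n = 3; log2 fold change -1.32 ± 0.04, adjusted p = 1.05e-13). It was also the 1 gene of 26 tested that passed in descending fibroblasts, from 209 ± 39.0 to 78.2 ± 1.63 (log2 fold change -1.42 ± 0.17, adjusted p = 0.00716), beside 8.07% of all genes. That call was lost without descending TGFβ replicate 1, 2 or 3 (adjusted p = 0.0685, 0.0726 and 0.0729) and with the replicate number as a block (0.0758). Without descending control replicate 3 it was one of 13 of 27 that passed, 7 higher and 6 lower, beside 52.9% of all genes (log2 fold change -1.56 ± 0.05).

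Ptgir, the prostacyclin receptor, fell in ascending fibroblasts from 3.68 ± 0.395 to 0.913 ± 0.248 normalized CPM (log2 fold change -2.00 ± 0.25, adjusted p = 3.30e-06). In descending fibroblasts the change was -1.56 ± 1.36 (adjusted p = 0.536), and -2.14 ± 0.21 without control replicate 3 (adjusted p = 3.98e-10, over all alternatives 3.98e-10 to 0.858). The thromboxane receptor Tbxa2r was lower in ascending fibroblasts by a log2 fold change of -0.16 ± 0.06 (adjusted p = 0.0313), a call lost with DESeq2 (adjusted p = 0.133), with no filter on low counts (0.0531), in one fit of all 12 libraries (0.904) and without replicate 1 or 3 of control or replicate 1 or 2 of TGFβ (0.0948 to 0.118). Among the terminal synthases, Ptges3 and Ptges2, further prostaglandin E synthases, were higher with TGFβ in ascending fibroblasts by log2 fold changes of 0.33 ± 0.04 and 0.30 ± 0.09, as was Akr1b3, an aldo-keto reductase, by 0.20 ± 0.05. Fam213b and Cbr1 were lower (-0.73 ± 0.10 and -0.33 ± 0.07). The secreted phospholipase Pla2g2e was lower (log2 fold change -1.30 ± 0.39, adjusted p = 0.00963), a call lost with DESeq2 (adjusted p = 0.0692) and without ascending TGFβ replicate 2 (adjusted p = 0.0581). Pla2g15 was higher by 0.16 ± 0.05 (adjusted p = 0.0206), a call lost with DESeq2 (adjusted p = 0.0807) and without ascending control replicate 1 or 3 or ascending TGFβ replicate 1 or 2 (adjusted p from 0.06 to 0.085). The Ptges2 call was lost without ascending control replicate 2 (adjusted p = 0.0571).

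Between the sites in control, 1 of 24 tested genes passed, Ptgfrn, whose product binds to the prostaglandin F receptor. It was higher in ascending fibroblasts, at 315 ± 6.39 against 192 ± 14.7 normalized CPM (log2 fold change 0.72 ± 0.11, adjusted p = 0.0284), the opposite direction to Ptgfr itself, beside 2.65% of all genes that passed. The Ptgfrn call was lost with no filter on low counts (adjusted p = 0.0683) and with the replicate number as a block (0.240). It was also lost when any library other than descending control replicate 3 was left out (adjusted p from 0.118 to 0.232). Without descending control replicate 3 the mean there was 200.1 and the log2 fold change 0.67 ± 0.04, and Ptgfrn was one of 13 of 28 that passed, 9 higher and 4 lower, beside 31.6% of all genes. With TGFβ, 9 of 23 passed beside 36.3% of all genes, 4 higher (Ptgfrn, Pla2g6, Slco2a1 and Lta4h) and 5 lower. Of the lower genes, the thromboxane receptor Tbxa2r stood at 32.7 ± 1.79 against 52.5 ± 4.02 (log2 fold change -0.68 ± 0.06, adjusted p = 4.97e-10), and Ptgir at 0.913 ± 0.248 against 1.95 ± 0.744 (-1.08 ± 0.33, adjusted p = 0.01). The Ptgir call was lost without descending TGFβ replicate 2 or ascending TGFβ replicate 1 (adjusted p = 0.0952 and 0.0584), the Slco2a1 call with DESeq2 (adjusted p = 0.140), with no filter on low counts (adjusted p = 0.108) and without replicate 2 or 3 of either TGFβ group (adjusted p from 0.074 to 0.205), and in one fit of all 12 libraries only Ptgfrn of the 9 kept the call. In the interaction 0 of 28 passed beside 0.806% of all genes, and without descending control replicate 3, 4 of 29 beside 13.5%: Slco2a1 more positive, and Fam213b, Tbxa2r and Ptgfrn more negative in ascending fibroblasts.

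**Figure D5:**
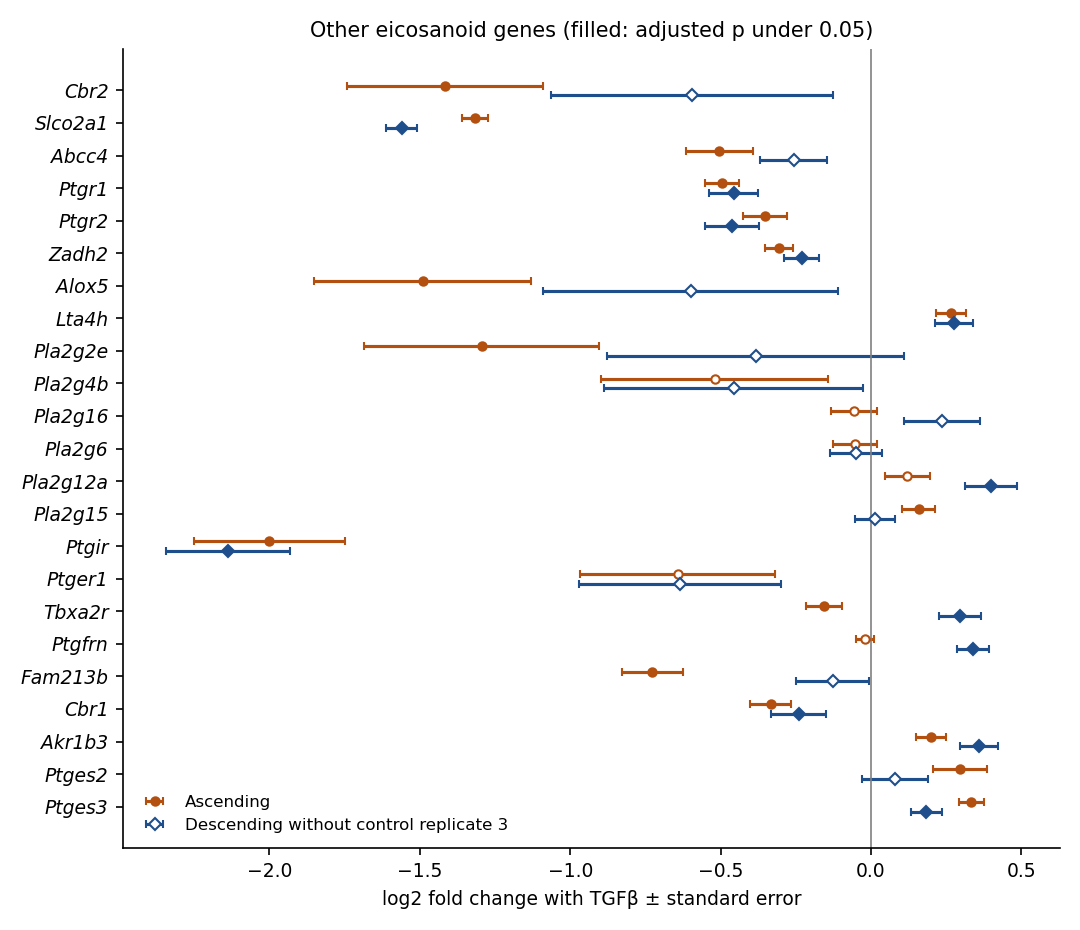
Log2 fold change with TGFβ (horizontal axis) ± standard error of 23 other eicosanoid genes in ascending fibroblasts (orange) and in descending fibroblasts without control replicate 3 (blue), with filled symbols for an adjusted p under 0.05. Ptgir at -2.00 and -2.14 and Slco2a1 at -1.32 and -1.56 lie far to the left at each site.

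The gene most like each member was sought among 14637 genes by Pearson's r of log2 CPM over the 11 libraries other than descending control replicate 3, as a description over libraries that share groups. Ptgs2 was most like Fblim1 (r = 0.998, and 0.946 over all 12 libraries), Ptgs1 like Rras2 (0.997 and 0.990) and Ptges like Kcnk3 (0.994 and 0.965). Hpgd was most like Col3a1 (0.992 and 0.992), Ptger4 like Plau (0.986 and 0.987) and Ptgfr like Klf7 (0.978 and 0.906). For Pla2g4a and Lrig1 r was 0.990 over 11 libraries and 0.604 over 12, and for Ptgis and Ppfibp1 it was 0.996 and 0.107, so these likenesses depend on leaving out that library. Between members over the 11 libraries, r was -0.994 for Ptgs1 and Ptgs2, 0.965 for Ptgs2 and Pla2g4a, and -0.968 for Ptges and Ptgis.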

How the data were processed

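RNA was sequenced in 12 libraries of cultured cells. By the labels and the study's notes, the authors checked reads with FastQC, aligned them to mm10 with STAR and counted them per gene with featureCounts; versions and the strand setting are not given in the sources used here. The deposited values are raw read counts, 1 column per library, and the authors' own comparisons used DESeq2. Exons that share sequence or overlap another gene may therefore be split or merged in counting.

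The labels' site and treatment gave the groups. Counts were tested in R 4.3.3 with edgeR 4.0.16 (quasi-likelihood F-test, TMM, filterByExpr with its default thresholds of 10 counts and 15 in total, Benjamini-Hochberg adjustment over all genes tested, adjusted p under 0.05), on the 6 libraries of the groups compared, and on all 12 for the interaction. The filter can be passed through a single group. Between the sites this was so for Hpgd, Ptgfr, Ltc4s and Alox12, and with TGFβ in ascending fibroblasts for Alox5, Pla2g2e and Cbr2. In the interaction, Hpgd passed only through the ascending and Ptgfr only through the descending libraries. Each passed through the group or site where it was higher, and its test is given as a description. Log2 fold changes are edgeR's. Standard errors were derived from the F statistic. The alternatives were the Wald test and size factors of DESeq2 1.42.0, no filter, at least 10 counts in every library, the replicate number as a block, limma-voom 3.58.1 with sample weights, one fit of all libraries, and each library left out in turn. Levels per kb divide normalized CPM by exon length in GENCODE vM21 (GRCm38), whose coordinates are printed. Floors of 3 counts cover counting error only. The fits were tested on simulated data. Promoter sequences are RefSeq's, for the 9 genes other than Ptgis.

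The 10 genes and the other lists were chosen with earlier results of these data known. The text names all 10 genes, the other pathway genes past the threshold in at least 1 comparison with all libraries, and for each member the gene with the highest r. No 2 libraries were identical. Labels, methods and results of the study differ on age and passages, and the labels are followed.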

Additional observations from a re-analysis of the deposited data

Results flagged for a closer look

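The difference between the responses to TGFβ in ascending and descending fibroblasts, tested as an interaction without descending control replicate 3, passed for 4 genes. The difference of the log2 responses, ascending minus descending, was 0.793 ± 0.093 for Ptgs2 (adjusted p = 1.01e-06, over all alternatives 1.01e-06 to 0.354) and 0.565 ± 0.090 for Pla2g4a (adjusted p = 7.09e-05, over all alternatives 5.14e-05 to 0.500). It was -0.328 ± 0.063 for Ptgis (adjusted p = 6.43e-04, over all alternatives 6.43e-04 to 0.803) and -1.897 ± 0.586 for Hpgd (adjusted p = 0.0313, over all alternatives 0.0313 to 0.761). With all 12 libraries the values were 1.16 ± 0.29, 0.88 ± 0.26, -0.74 ± 0.54 and -2.36 ± 0.97, each in the same direction and none past the threshold in edgeR. That library holds fewer detected genes and a larger mitochondrial share than the others, and the part of this in the result was not tested. For Hpgd the descending arm without it rests on 10 and 19 counts in control and 4, 6 and 3 with TGFβ. Hpgd passed the filter here only through the ascending libraries, where it was higher, so its interaction test is given as a description.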

How the results depend on the processing

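Over the 528 recomputed log2 fold changes of the members, 467 kept their direction and their side of the threshold, 24 lost a call, 30 gained one and 7 changed sign, none of the last with a call. In ascending fibroblasts with TGFβ, all 7 genes stayed called when any 1 library was left out. The count of members changed with TGFβ in descending fibroblasts, 4, became 1 with the replicate number as a block (replicate block; Ptgs1, Ptges and Ptger4 then at adjusted p = 0.113, 0.104 and 0.0884) and 1 to 6 when libraries were left out one at a time, the 6 being without control replicate 3. The count between sites in control, 1, became 4 with DESeq2, 2 with no filter on low counts, 0 with the replicate block (Ptges at 0.087), 6 with limma-voom and sample weights, 4 with the 12 libraries in one fit and 0 to 6 with libraries left out. The count between sites with TGFβ, 6, became 2 in one fit, in which the 4 groups share one estimate of the spread. The interaction count, 0, became 1 with DESeq2, 4 with limma-voom and 0 to 4 with libraries left out. The other pathway genes called without descending control replicate 3 were 13 (descending TGFβ, 1 with it), 13 (sites in control, 1 with it) and 4 (interaction, 0 with it).

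The values that changed sign were those of Ptgfr with TGFβ in descending fibroblasts (-0.398 to 0.085 over libraries left out), of Ptges in the interaction (-0.02 to 0.23) and of Ptgfr in the interaction (-0.176 to 0.374). Over all genes, calls in ascending TGFβ went from 7767 to 2338 in one fit, in descending TGFβ from 1115 to 2242 (DESeq2), 95 (block), 7335 (limma-voom), 3570 (one fit) and 213 to 7576 (libraries left out), between sites in control from 374 to 1034, 0, 4392, 1545 and 33 to 4631 in the same order, with TGFβ from 4963 to 1106 (one fit), and in the interaction from 118 to 419 (DESeq2), 56 (no filter), 50 (block), 1979 (limma-voom) and 25 to 2022. Other than leaving out a library, the cause was not tested. Same-numbered libraries were only weakly alike: of 18 such pairs, 0 correlated above 0.1 (-0.026 to 0.088), while 8 of 12 libraries correlated best with their own number. These values do not settle whether the replicate numbers pair the libraries. The block also ended the calls of Slco2a1 with TGFβ in descending fibroblasts (adjusted p = 0.0758) and of Ptgfrn between sites in control (0.240). Depth limits Ptger2, Ptger3, Hpgd in descending fibroblasts and Ptgfr in ascending fibroblasts, all at or near 3 counts in some library.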

Other observations

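The lipoxygenase and leukotriene branch, which uses the same arachidonic acid, was mostly below the filter. Of its 14 genes, 2 were tested with TGFβ in ascending fibroblasts: Alox5, 5-lipoxygenase, was lower, at 0.460 ± 0.019 against 1.31 ± 0.430 normalized CPM (SD, n = 3; log2 fold change -1.49 ± 0.36, adjusted p = 0.00213), and Lta4h, leukotriene A4 hydrolase, was higher by 0.27 ± 0.05 (adjusted p = 2.76e-04). Alox5 is also a gene of macrophages, and the macrophage markers summed to 30.4 to 43.1 in ascending fibroblasts with TGFβ against 56.1 to 368 in control, and their part in this value was not tested. Ltc4s, leukotriene C4 synthase, had 17 to 22 counts in descending and 1 to 6 in ascending libraries with TGFβ (log2 fold change -2.48 ± 0.51, adjusted p = 2.77e-04). Alox12 had 10 to 23 and 0 to 7 counts there (-2.18 ± 0.57, adjusted p = 0.00329). Ltc4s and Alox12 passed the filter on low counts only through the descending libraries, where they were higher, so these tests are given as a description. In one fit of all 12 libraries the calls of Alox5, Lta4h, Ltc4s and Alox12 were lost (adjusted p = 0.253, 0.153, 0.249 and 0.285).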
